A study of Rattus norvegicus with 18 samples.

Results

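The genes described here encode the machinery of vesicle traffic and exocytosis in rat astrocytes. They were taken as every probe set with 1 platform symbol beginning with the letters of any of 16 families (Syn, Syp, Syt, Stx, Snap, Vamp, Sv2, Nsf, Napa, Napb, Rab, Rph3a, Cplx, Unc13, Rims or Dnm), the controls of the array itself left out. The rule found 36 genes with 50 probe sets, among 720 genes and 1263 probe sets on the array. Only 7 of the 16 name stems had a probe set, and none was found for Vamp, Nsf, Napa, Napb, Rph3a, Cplx, Unc13, Rims or Dnm, so the vesicle SNARE, the disassembly ATPase and dynamin were not analysed here. The symbols gave 9 syntaxin-type genes (among them Stxbp2, a syntaxin-binding protein), 10 synaptotagmins, 2 genes of the SNAP-25 family, 7 genes beginning with Syn, 2 Sv2 genes, Syp and 5 Rab genes. Synpo, which encodes the actin-associated protein synaptopodin, was caught by its letters alone and is described apart.

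Exocytosis joins a vesicle to the plasma membrane. A SNARE protein on the vesicle pairs with a syntaxin and a SNAP-25 family protein on the target membrane, Sec1/Munc18 proteins such as Stxbp2 bind the syntaxin, and synaptotagmins couple the fusion to calcium, while Rab GTPases direct vesicles to their membranes. Synapsins, synaptophysin, synaptogyrin and SV2 proteins are best known from the synaptic vesicles of neurons, and astrocytes are known to carry part of the same machinery.

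The series holds 18 arrays of total RNA from cultured rat cortical astrocytes. The 6 control arrays are of cells that grew on laminin and nitrocellulose with no peptide, and the rest grew on an immobilized fragment of beta-amyloid, residues 25 to 35, and were taken at 12 hours or after 1, 3 or 5 days, 3 arrays per time. Controls 1 and 2 carry the source label cerebral cortex and the other 16 arrays that of cortical type-I astrocytes. The labels give no age or strain of the rats, no culture time for the controls, and do not say whether the arrays within a group came from different cultures; a p-value here rests on the spread of these arrays, which can be purely technical. Each array was bulk RNA, in which fewer cells of a type and less RNA per cell cannot be told apart.

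Before any result, the arrays themselves fell into 2 clusters over all probe sets tested. The smaller, cluster 1, had 7 arrays: the 12-hour arrays (3 of 3), controls 1 and 2, and the third array of both the 1-day and the 3-day group. Cluster 2 held the other 11 arrays, including all 3 at 5 days, so that the comparison of 5 days with 12 hours ran wholly between the clusters. The 12-hour arrays also lay closest to one another: the median SD of log2 signal over the 44 tested member probe sets was 0.14 at 12 hours, against 0.40 over the controls, 0.36 at 1 day, 0.37 at 3 days and 0.34 at 5 days. Of 13 astrocyte markers 8 were measured, and their summed signal, with 1 probe set a gene, was 24072 to 42340 on every array, with Vim, the intermediate filament vimentin, at 8770 to 18831. Of 18 neuron markers 10 were measured, and their sum was 3577 to 3819 at 12 hours, 5195 to 5521 at 5 days and 3618 to 6776 over the controls. Eno2 alone read 2283 to 2488 at 12 hours and 2904 to 3418 at 5 days, so the sum at these times rests largely on that gene. Of 11 oligodendrocyte-lineage markers 6 were measured, with a sum of 1105 to 1977. The defining factor Sox10 read 2.9 to 11.9, Mag 283 to 525, Cnp 230 to 818, Pdgfra 137 to 1149, Mbp 28 to 139.7 and Mog 38.9 to 179. The microglial marker Itgam read 22.3 to 77, and the only measured gene of the meningeal and vascular list, Igf2, read 3282.5 to 8744 in cluster 1 and 211 to 645 in cluster 2 on X17012mRNA_s_at. The 5 tested probe sets of Igf2 differed: at 12 hours the log2 fold against control was 2.14 on that one and 1.83 on E00988mRNA_s_at, but -0.37, -0.24 and -0.26 on M17960_at, M17960_g_at and X16703_r_at, and none was called.

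Signals are linear intensities as deposited, and no result compares levels between probe sets; a mean over arrays only served to choose which members are shown in full. A log2 fold is a difference of group means of log2 signal, with signals under 11.3 set to that floor, and a probe set was tested where its signal passed 44.9 on at least 3 arrays. Of the 50 member probe sets 44, of 34 genes, were tested among 1027 in all. The call is an adjusted p under 0.05 in limma over all 1027. The 6 untested members were Rab29 (mean signal 14 over 18 arrays), Syt7 (25.8), Snap25 on AB003992_s_at (6.14) and U56261_s_at (6.79), and Syn2 on M27925_at (12.6) and rc_AI145494_at (0.933). Rab29, a GTPase of the trans-Golgi network, was above the filter on 1 array only, the first at 1 day with 66.1. Syt7, a calcium sensor of slow release, was above it on 2, with 48.8 on the second array at 1 day and 74.3 on the first at 3 days.

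Few genes of the vesicle machinery changed on the peptide, in shares near those of the array as a whole. At 12 hours 1 of the 44 probe sets was called, Syn1 (synapsin 1), which fell, while 17 of 1027 were called over the array, or 1.66%. At 1 day none of the 44 was called, beside 3 over the array (0.292%), and at 3 days and at 5 days none was called against control in the members or over the array (0% at both times). Between 12 hours and 5 days 5 members were called. Syt11, Sv2a and Syn1 were higher at 5 days and Stx3 and Rab1b lower, beside 169 of the 1027 (16.5%), of which 8.96% were higher and 7.5% lower. In the moderated F-test over the 5 groups none of the 44 was called, beside 1.66% over the array, and 12 of 44 (27.3%) had an unadjusted p under 0.05 there, beside 25.1%.

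Without the adjustment the share of members with p under 0.05 also lay close to that of the array in each comparison. It was 13 of 44 (29.5%) against 29.3% at 12 hours, 5 (11.4%) against 11.7% at 1 day, 2 (4.55%) against 4.58% at 3 days, 4 (9.09%) against 9.15% at 5 days, and 13 (29.5%) against 31.9% for 5 days against 12 hours. The median log2 fold of the members was -0.07 at 12 hours beside -0.18 over all tested, -0.005 beside -0.05 at 1 day, 0.07 beside 0.02 at 3 days and -0.17 beside -0.14 at 5 days. For 5 days against 12 hours it was -0.16 beside 0.01. The 12-hour figures move with the scaling between arrays. Median centring lifts the median over all tested by 0.19 at 12 hours and turns the members' split from 18 folds above and 26 below 0 into 29 above and 15 below.

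**Figure D1:**
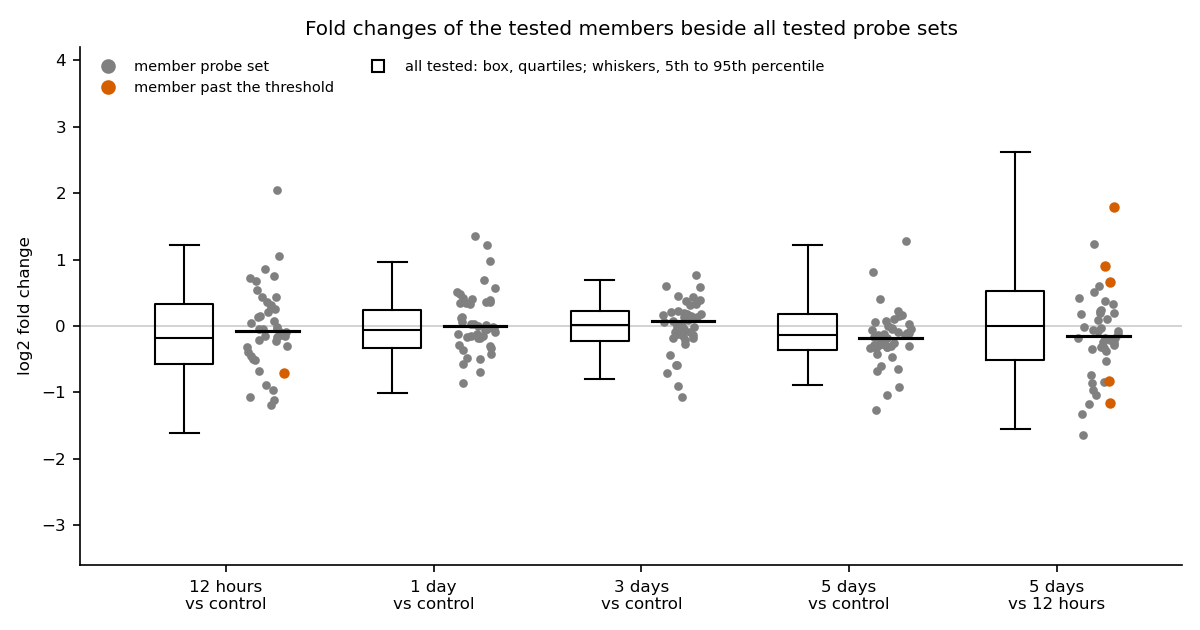
Log2 fold changes of the 44 tested member probe sets (points, with a line at their median) beside all 1027 tested probe sets (box, quartiles, with whiskers from the 5th to the 95th percentile) in 5 comparisons. The members' medians lie between -0.17 and 0.07, and the called members are 1 at 12 hours and 5 for 5 days against 12 hours.

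Signals that did not overlap between groups were counted too. Of the 44 members 3 had all their 12-hour signals above every control, beside 5.36% over the array, and these were Stx3, Snap23 and Rab1b on X13905cds_g_at. Another 5, Syn1, Syn3, Synj2, Stxbp2 on U20283_at and Syngr1 on U39549_at, lay wholly below, beside 9.83%. Between 5 days and 12 hours 9 members lay wholly higher at 5 days, beside 26.7%, and 16 wholly lower, beside 27.1%. Over the clusters as such, 4 members (Rab1b on X13905cds_at, Stx4, Stx6 and Stx7) lay wholly higher in cluster 1, beside 7.79%, and 1 (Syt11) wholly lower, beside 7.11%.

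The promoters of the genes with a called probe set are shown because the results turn on these members, and Rab1b alone has none printed. Each is the 250 bases before the gene's start in RefSeq's annotation of GRCr8, read 5′ to 3′ on the gene's strand, at chrX:3725495-3725744 (+ strand) for Syn1, chr2:176529776-176530025 (- strand) for Syt11, chr2:186430113-186430362 (+ strand) for Sv2a and chr1:218110467-218110716 (- strand) for Stx3. Capitals mark matches, on either strand, to the cAMP response element TGACGTCA, the GC box GGGCGG, the CCAAT box CCAAT, the TATA box TATAAA, the E-box CACGTG and the left and right parts of the RE1 element, TTCAGCACC and GGACAG. No match overlapped another.
Syn1: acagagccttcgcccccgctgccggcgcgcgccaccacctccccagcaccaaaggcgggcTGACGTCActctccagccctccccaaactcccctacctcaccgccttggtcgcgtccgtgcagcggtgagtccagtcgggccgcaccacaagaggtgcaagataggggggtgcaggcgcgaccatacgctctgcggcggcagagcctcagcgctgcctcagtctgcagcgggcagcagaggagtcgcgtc
Syt11: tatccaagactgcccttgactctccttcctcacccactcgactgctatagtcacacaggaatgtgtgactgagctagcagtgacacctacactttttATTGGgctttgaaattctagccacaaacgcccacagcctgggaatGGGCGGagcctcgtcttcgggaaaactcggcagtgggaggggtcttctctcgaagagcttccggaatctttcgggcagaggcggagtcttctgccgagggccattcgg
Sv2a: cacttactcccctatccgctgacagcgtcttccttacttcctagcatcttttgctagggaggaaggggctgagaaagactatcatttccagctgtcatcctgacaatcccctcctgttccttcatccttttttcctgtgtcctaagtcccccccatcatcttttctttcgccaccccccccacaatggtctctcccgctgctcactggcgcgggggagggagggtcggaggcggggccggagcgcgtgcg
Stx3: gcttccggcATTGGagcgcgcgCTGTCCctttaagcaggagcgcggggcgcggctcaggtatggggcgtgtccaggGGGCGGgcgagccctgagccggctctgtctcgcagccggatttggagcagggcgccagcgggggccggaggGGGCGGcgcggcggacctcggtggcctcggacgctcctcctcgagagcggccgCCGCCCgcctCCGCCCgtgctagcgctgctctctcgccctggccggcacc
Syn1 held the response element TGACGTCA with its first base 190 bases before the start, a match found in 1.59% of all 33469 promoters of this length and in 1 of the 29 member genes with a promoter in the table. Stx3 held 4 GC boxes, 1 CCAAT box and 1 match to the right part of RE1, and Syt11 held 1 GC box and 1 CCAAT box. A GC box was in 30.5% of all promoters and in 20 of the 29 member genes, a gene counting where any of its listed promoters held the match. A CCAAT box was in 34% of all and in 10 of the 29, and the right part of RE1 in 18.2% and in 4. The TATA box was in 12.9% of all and in none of the 29, the E-box in 5.59% and in 3, and the left part of RE1 in 0.305% and in none. Sv2a held none of these letters in the window.

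The syntaxins, the SNAREs of the target membrane, were represented by 11 probe sets of 8 genes, all tested. Stx3, a plasma membrane syntaxin, was the called member. Its signal was 168, 176 and 185 on the 12-hour arrays, against a lowest of 60.6, a median of 107 and a highest of 159 over the 6 controls. It read 82.4, 88.3 and 130 at 1 day, 81.3, 123 and 94.8 at 3 days and 60.2, 83.8 and 97.8 at 5 days. All 3 arrays at 12 hours lay above every other array of the series. The means were 104 ± 37.8 (SD, n = 6) in control, 176 ± 8.91 (SD, n = 3) at 12 hours and 80.6 ± 19 (SD, n = 3) at 5 days. From 12 hours to 5 days the log2 signal of Stx3 fell by 1.16 ± 0.34 (SE), a 2.23-fold lower signal, with adjusted p = 0.0416 in limma. Against control it was 0.85 ± 0.29 at 12 hours, with adjusted p = 0.109, which missed the threshold. With the clusters as a block the difference of Stx3 between 5 days and 12 hours was -0.68 with adjusted p = 0.409, in a fit that called 0% over the array for these times.

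Stx5, the syntaxin of traffic from the endoplasmic reticulum to the Golgi, has 2 probe sets. L20822_at read 979, 1011 and 994 at 12 hours, against a lowest of 779.9, a median of 1058 and a highest of 1220.3 over the 6 controls. It read 621, 600.4 and 952 at 1 day, 798, 1001 and 1211 at 3 days and 884, 812 and 705 at 5 days. Its lowest signals were those of the first and second arrays at 1 day. The other Stx5 probe set, U87971_g_at, read 440, 481 and 769 at 1 day, where again the first and second arrays lay below all 6 controls, whose lowest was 742. Over 18 arrays the Stx5 probe sets correlated with r = 0.791, as a description. At 1 day the log2 fold of Stx5 against control was -0.50 ± 0.20 and -0.57 ± 0.18 on the respective probe sets, with adjusted p = 0.382 and 0.317 in limma. Over the arrays of cluster 2 alone, a fit added after seeing the data, the fold on U87971_g_at was -0.84 with adjusted p = 0.0103. That fit leaves out the third array at 1 day, which read higher than the others of its group, and called 123 of the 1027 (12%).

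None of the other syntaxins was called in any of the 6 tests. Stx1a, the neuronal plasma membrane syntaxin, had a mean signal of 149 over 18 arrays and a single low value, 38.7 on the first array at 3 days. Stx4, the plasma membrane partner of Snap23, had a mean of 600, Stx6 of the trans-Golgi network 431, and Stx7 of late endosomes 496. All of Stx4, Stx6 and Stx7 were higher in every array of cluster 1 than in any of cluster 2: Stx4 read 685 to 899 against 329 to 608, Stx6 437.5 to 714 against 316 to 430.2, and Stx7 500 to 838 against 284 to 487. So were 7.79% of all tested probe sets, from which the clusters themselves were drawn. Stx8 of endosomes had means of 271 and 457 on its probe sets (r = 0.535), and Stx12 of recycling endosomes 409 and 795 (r = 0.365). Over the syntaxins, 10 of 11 log2 folds at 5 days against control were below 0, with a median of -0.21 beside -0.14 over all tested, and the lowest adjusted p was 0.563. With cyclic loess scaling, which lifts the median over all tested by 0.15 at 5 days, the folds of Stx12, Stx1a and Stx8 changed sign.

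Of the SNAP-25 family, Snap23 is the form found in most tissues and Snap25 the neuronal one. Snap23 read 818, 859.6 and 912 at 12 hours, against a lowest of 586, a median of 683 and a highest of 756 over the 6 controls. It read 607, 669 and 804 at 1 day, 666, 684 and 847 at 3 days and 896, 588 and 142 at 5 days. Its 12-hour signals lay above all controls, while at 5 days the 3 arrays spread from the lowest signal of the series to one of the highest. The log2 fold of Snap23 was 0.36 ± 0.39 at 12 hours and -0.67 ± 0.39 at 5 days, with adjusted p = 0.543 and 0.539 in limma. Snap25 was tested on AB003991_at and AB003991_g_at, with means of 114 and 81.8 over 18 arrays. The Snap25 probe sets did not move together (r = -0.177), and neither was called. Both other Snap25 probe sets stayed at or under 39.6 on every array.

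Stxbp2, the Munc18 form of many secretory cells outside the brain, has 2 probe sets that gave different readings. On U20283_at it read 90.1, 89.2 and 87.2 at 12 hours, against a lowest of 91, a median of 107 and a highest of 135 over the 6 controls. It read 92.9, 69.7 and 97.3 at 1 day, 63.5, 32.8 and 96.3 at 3 days and 90.2, 29.1 and 57.9 at 5 days. The 12-hour signals lay just below every control, and the lowest values were 29.1 on the second array at 5 days and 32.8 on the second at 3 days. The log2 fold on U20283_at at 5 days was -1.04 ± 0.33 with adjusted p = 0.421 in limma. On rc_AA964359_s_at the mean was 256 and the same fold of Stxbp2 was 0.05 ± 0.24, with r = 0.119 between the probe sets.

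The synaptotagmins, the calcium-binding proteins of vesicles, had 10 tested probe sets of 9 genes, and Syt11 was the called member. Syt11, like Syt4, is a form that is known not to bind calcium in the manner of the release sensors. It read 116, 107 and 95 at 12 hours, against a lowest of 101, a median of 236 and a highest of 370.1 over the 6 controls. It read 365, 280.5 and 184 at 1 day, 314, 398 and 143 at 3 days and 216, 374 and 600.4 at 5 days. The low arrays were exactly those of cluster 1, at 95 to 184, and every array of cluster 2 was higher, at 211 to 600, so that controls 1 and 2 (127 and 101) stood with the 12-hour arrays. Of all tested probe sets, from which the clusters were drawn, 7.11% lay wholly lower in cluster 1. The means of Syt11 were 229 ± 104 (SD, n = 6) in control, 106 ± 10.3 (SD, n = 3) at 12 hours and 397 ± 193 (SD, n = 3) at 5 days. From 12 hours to 5 days Syt11 rose by 1.79 ± 0.51 on the log2 scale, or 3.46-fold, with adjusted p = 0.0409 in limma. With the clusters as a block that difference was 0.61 with adjusted p = 0.491, in a fit that called 0% over the array for these times. Against control Syt11 was -0.97 ± 0.44 at 12 hours with adjusted p = 0.153, and 0.82 ± 0.44 at 5 days with adjusted p = 0.52. Within cluster 1, where 12 hours is set against controls 1 and 2, the fold of Syt11 was -0.10.

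Syt4, a synaptotagmin of dense-core vesicles that is also found in astrocytes, had the largest 12-hour fold of the members on U14398_at. It was 2.05 ± 1.04 on the log2 scale and was not called (adjusted p = 0.201 in limma). The other Syt4 probe set, U14398_g_at, had a 12-hour fold of 0.68 ± 0.44 (adjusted p = 0.2975). On U14398_g_at Syt4 read 148, 164 and 181 at 12 hours, against a lowest of 66.4, a median of 104 and a highest of 185 over the 6 controls. It read 334, 333 and 73.1 at 1 day, 72.5, 72.3 and 59.6 at 3 days and 96.8, 40.3 and 70.9 at 5 days. On U14398_at it read 169, 168 and 175 at 12 hours and 275, 372 and 6.6 at 1 day. On both, the first and second arrays at 1 day were the highest of the series and the third was among the low ones. Control 1 stood alone among the controls, at 184.7 and 183 on the respective probe sets, near the 12-hour arrays. The remaining controls were between 9.1 and 90.1 on U14398_at. The probe sets correlated with r = 0.797. At 1 day the log2 fold of Syt4 on U14398_g_at was 0.98 ± 0.44 with adjusted p = 0.408 in limma, and on U14398_at 1.35 ± 1.04 with adjusted p = 0.702. A fit over the arrays of cluster 2 alone, with 2 arrays at 1 day against 4 controls, was added after seeing the data. There Syt4 at 1 day was higher by 1.77 on U14398_g_at (adjusted p = 0.00815 in limma) and by 3.03 on U14398_at (adjusted p = 0.0464). That fit called 123 of the 1027 (12%), and the clusters were drawn from these same signals. It left out array 3 at 1 day, which read 73.1 on U14398_g_at and 6.6 on U14398_at. Its p-values therefore do not speak for the whole 1-day group. In cluster 1 the third array at 1 day was below the mean of controls 1 and 2, by a log2 fold of -0.60 and -2.01.

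Syt6 and Syt5 complete the synaptotagmins given on every array. Syt6 on U20105_at, with a mean of 33.7, read 12.4, 14.5 and 18.3 at 12 hours, against a lowest of 16.1, a median of 28.8 and a highest of 76.1 over the 6 controls. It read 71.3, 68.8 and 28.5 at 1 day, 26.2, 52.8 and 30 at 3 days and 21.1, 17.1 and 26.4 at 5 days. Only 4 of the 18 arrays passed the filter signal, which were control 1, the first and second arrays at 1 day and the second at 3 days. The fold of Syt6 at 12 hours was -1.11 ± 0.42 on the log2 scale with adjusted p = 0.116 in limma. Syt5 read 354, 376 and 326 at 12 hours, against a lowest of 279, a median of 404 and a highest of 449.6 over the 6 controls. It read 444, 407 and 260.3 at 1 day, 374, 377 and 278 at 3 days and 295, 321 and 311 at 5 days. The Syt5 groups overlapped throughout, apart from 5 days and 12 hours, and its folds lay between -0.32 and -0.09 against control. Of the others, Syt3 had a mean signal of 208, Syt8 80.9, Syt9 46.4, Syt10 41.5 and Syt2, a fast release sensor of neurons, 25.8. Syt8 read 41.5, 57.1 and 28.6 at 5 days, all below the 12-hour signals of 72.4, 109.8 and 99.6, and that difference was -1.18 ± 0.42 with adjusted p = 0.0656.

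The synapsins, which tether synaptic vesicles to actin, had 3 tested probe sets, of which Syn1 alone was called at 12 hours, lower than control. Syn2 and Syn3 also had log2 folds below 0 then, as 616 of the 1027 over the array did, and were not called. Syn1 read 202, 189.7 and 227 at 12 hours, against a lowest of 246, a median of 341 and a highest of 406 over the 6 controls. It read 336, 306 and 344 at 1 day, 366, 307 and 348 at 3 days and 294, 316 and 367 at 5 days. Every 12-hour array was below every other array, and control 1 was the lowest of the rest. The means were 340.4 ± 55 (SD, n = 6) in control, 206 ± 18.9 (SD, n = 3) at 12 hours, 329 ± 19.7 (SD, n = 3) at 1 day, 340.3 ± 29.9 (SD, n = 3) at 3 days and 326 ± 37.1 (SD, n = 3) at 5 days. At 12 hours Syn1 fell by 0.71 ± 0.17 on the log2 scale, a 1.64-fold lower signal, with adjusted p = 0.0475 in limma. From 12 hours to 5 days it rose by 0.66 ± 0.19, or 1.58-fold, with adjusted p = 0.0424. At 1, 3 and 5 days the fold of Syn1 against control was -0.04, 0.01 and -0.05. The call at 12 hours was lost in 16 of the 18 fits that left 1 array out, where the adjusted p ran from 0.00552 to 0.168, and held without control 1 or without control 2. With the clusters as a block the fold was -0.62 (adjusted p = 0.127), and within cluster 1 it was -0.49 (adjusted p = 0.395).

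Syn2 was tested on rc_AI145494_g_at, a dim probe set that passed the filter signal on 3 arrays, all of them controls. It read 23.8, 18.2 and 4.8 at 12 hours, against a lowest of 7, a median of 43.1 and a highest of 71.8 over the 6 controls. It read 32.9, 34.4 and 34.7 at 1 day, 44, 18 and 21.8 at 3 days and 17, 21.5 and 5.7 at 5 days. The 12-hour and 5-day arrays lay low, as did control 1. The log2 fold of Syn2 was -1.19 ± 0.47 at 12 hours and -1.27 ± 0.47 at 5 days, with adjusted p = 0.124 and 0.469 in limma, and having passed the filter through the controls it had to read lower elsewhere. Syn3 had a mean of 86.9 and read 63.6, 41 and 66.5 at 12 hours, all below the lowest control of 75.6. Its fold was -0.89 ± 0.39 with adjusted p = 0.149.

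Among the membrane proteins of synaptic vesicles, Sv2a, the SV2 form that binds the antiepileptic levetiracetam, was the called member. It read 84.5, 99.5 and 63 at 12 hours, against a lowest of 97.4, a median of 125 and a highest of 193 over the 6 controls. It read 138, 168 and 212 at 1 day, 220, 159 and 212 at 3 days and 134, 146 and 177 at 5 days. The 12-hour arrays were low together with controls 1 and 2 (99.1 and 97.4), while the third arrays at 1 day and at 3 days, of the same cluster, were among the highest. The means of Sv2a were 134 ± 37.5 (SD, n = 6) in control, 82.3 ± 18.4 (SD, n = 3) at 12 hours and 152 ± 21.8 (SD, n = 3) at 5 days. From 12 hours to 5 days Sv2a rose by 0.90 ± 0.28 on the log2 scale, or 1.87-fold, with adjusted p = 0.0446 in limma. With the clusters as a block the difference was 0.77 with adjusted p = 0.324, in a fit that called 0% over the array for these times. Against control Sv2a was -0.68 ± 0.24 at 12 hours (adjusted p = 0.111) and 0.59 ± 0.24 at 3 days (adjusted p = 0.877). Sv2c, its relative, had a mean of 116 with overlapping groups throughout.

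Syp, which encodes synaptophysin, read 101, 106 and 142 at 12 hours, against a lowest of 36.6, a median of 153 and a highest of 274 over the 6 controls. It read 79.1, 110.4 and 323 at 1 day, 120.3, 145 and 160.1 at 3 days and 100.4, 89.3 and 212 at 5 days. The arrays of Syp spread widely within control and within 1 day, and its folds against control lay between -0.16 and 0.14. Syngr1, synaptogyrin 1, is measured by 3 probe sets that did not follow one another (r of 0.049, 0.111 and -0.124), with means of 276, 47.7 and 66.8. On U39549_at it read 229.8, 228 and 225 at 12 hours, below a lowest of 239.7, a median of 311 and a highest of 341 over the 6 controls. Its log2 fold there was -0.39 ± 0.16 (adjusted p = 0.138 in limma), while on rc_AA799879_at it was 1.06 ± 0.50 (adjusted p = 0.172) and on U39549_g_at 0.44 ± 0.36 (adjusted p = 0.415). The probe sets of Syngr1 thus gave no single direction at 12 hours.

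**Figure D2:**
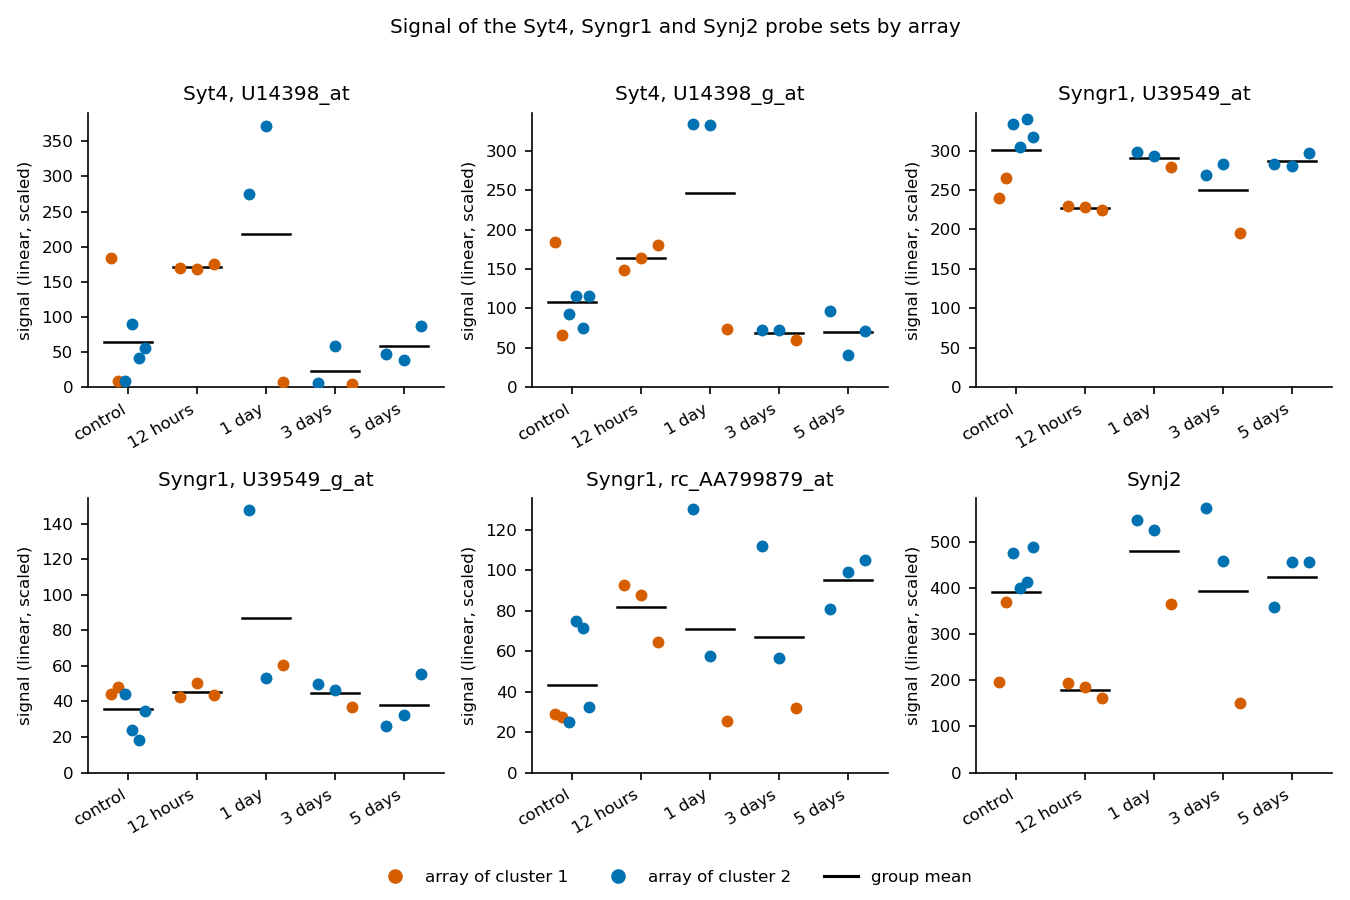
Signal (linear, as deposited) on each of the 18 arrays for the probe sets of Syt4 and Syngr1 and for Synj2, coloured by array cluster, with group means as lines. On both Syt4 probe sets the first and second arrays at 1 day are the highest and the third is low, and Synj2 is low on the 12-hour arrays, control 1 and the third array at 3 days.

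Synaptojanins are phosphoinositide phosphatases, of which Synj1 acts in the uncoating of recycled synaptic vesicles. Synj2 read 194, 186 and 161 at 12 hours, against a lowest of 195, a median of 406 and a highest of 488 over the 6 controls. It read 546, 526 and 364 at 1 day, 573, 459 and 149.8 at 3 days and 358, 455 and 456 at 5 days. The 12-hour arrays lay below all controls, and control 1 (195) and the third array at 3 days (149.8) lay beside them. The log2 fold of Synj2 was -1.06 ± 0.36 at 12 hours and 1.23 ± 0.42 for 5 days against 12 hours, with adjusted p = 0.109 and 0.0546 in limma, both short of the threshold. Synj1 on AJ006855_s_at read 444, 482 and 366 at 12 hours, against a lowest of 252, a median of 288 and a highest of 492 over the 6 controls. It read 357, 390.3 and 672 at 1 day, 345, 354 and 560.3 at 3 days and 315, 329 and 129 at 5 days. Its highest signals were on the third arrays at 1 day and at 3 days, and its fold between 5 days and 12 hours was -0.85 ± 0.37 (adjusted p = 0.123), opposite in sign to that of Synj2.

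Of the Rab GTPases, Rab1b, which acts between the endoplasmic reticulum and the Golgi, was called on X13905cds_g_at. It read 2705, 2646 and 2776 at 12 hours, against a lowest of 1415, a median of 1900 and a highest of 2419.8 over the 6 controls. It read 2347, 2227 and 2603 at 1 day, 1482, 1695 and 2969 at 3 days and 1728, 1512 and 1360.3 at 5 days. The 12-hour arrays were above all controls, the third array at 3 days was the highest of the series, and the 5-day arrays lay in the lower part of the control range or under it. The means of Rab1b were 1902 ± 391 (SD, n = 6) in control, 2709 ± 64.8 (SD, n = 3) at 12 hours and 1533 ± 185 (SD, n = 3) at 5 days. From 12 hours to 5 days its log2 signal fell by 0.83 ± 0.26, a 1.77-fold lower signal, with adjusted p = 0.0446 in limma. The other probe set of Rab1b, X13905cds_at, followed it closely (r = 0.951) and read 789.5 to 1170.2 in cluster 1 against 397 to 697 in cluster 2, with a fold of -0.97 ± 0.37 and adjusted p = 0.0816. With the clusters as a block the difference on X13905cds_g_at was -0.32 with adjusted p = 0.546, and on X13905cds_at -0.08, in a fit that called 0% over the array for these times.

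Rab3a, the Rab of regulated exocytosis, read 105, 104 and 108 at 12 hours, against a lowest of 105, a median of 153 and a highest of 180.1 over the 6 controls. It read 102, 126 and 126 at 1 day, 152, 142 and 206 at 3 days and 145, 166 and 170 at 5 days. Its 12-hour arrays lay at the foot of the control range, level with control 3. The fold of Rab3a was -0.45 ± 0.19 at 12 hours and 0.59 ± 0.22 for 5 days against 12 hours, with adjusted p = 0.138 and 0.0694 in limma. Rab4a of recycling endosomes, with a mean of 105, and Rab28, with means of 1570 and 906 on its probe sets (r = 0.351), were not called. Synpo, outside the machinery, had a mean of 359 and a log2 fold of 0.75 ± 0.27 at 12 hours (adjusted p = 0.111), with controls 1 and 2 (521 and 432) nearer the 12-hour arrays (534, 563 and 494) than the other controls were, at 237 to 292.

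**Figure D3:**
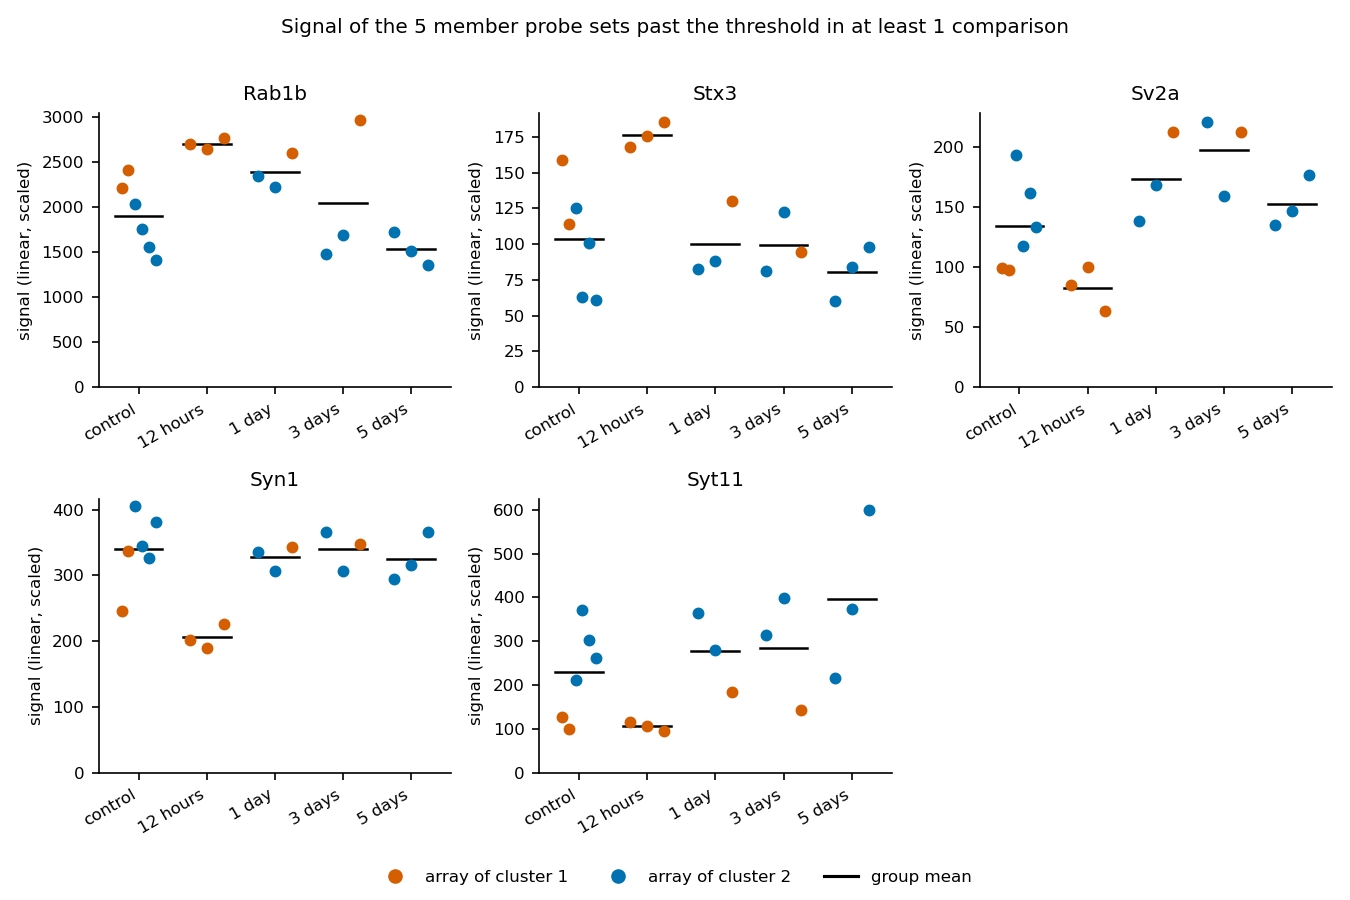
Signal (linear, as deposited) on each of the 18 arrays for the 5 called members, Rab1b on X13905cds_g_at, coloured by array cluster, with group means as lines. Syn1 is lowest and Stx3 highest on the 12-hour arrays, and Syt11 is lower on all 7 arrays of cluster 1 than on any of the other 11.

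**Figure D4:**
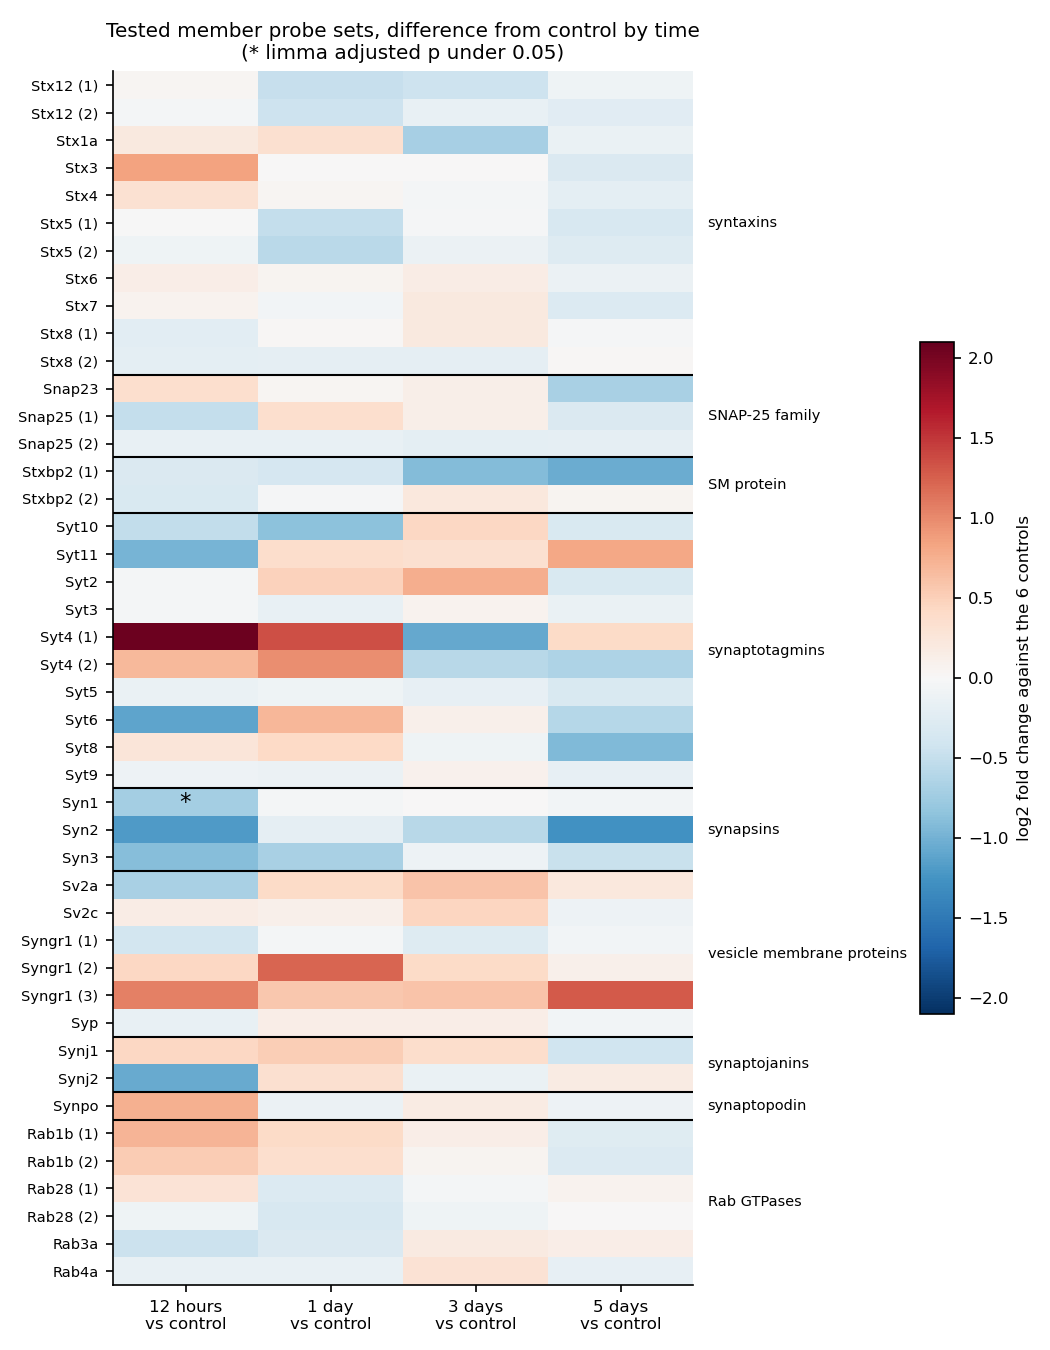
Log2 fold change against the 6 controls (colour, blue below and red above 0) of the 44 tested member probe sets at 4 times, grouped by role, with numbers after a symbol marking probe sets of 1 gene. The only call against control is Syn1 at 12 hours, and the widest fold is 2.05 for Syt4 on U14398_at at 12 hours.

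The choice of controls weighed most on the 12-hour comparison. Without controls 1 and 2, the arrays labelled cerebral cortex, limma called 10 of the 44 members at 12 hours, beside 31.3% over the array (13.1% higher and 18.1% lower). The 4 higher were Stx3 (1.08), Synpo (1.04) and Rab1b on both probe sets (1.01 and 0.69), and the 6 lower were Syn2 (-1.65), Syt11 (-1.41), Synj2 (-1.30), Sv2a (-0.88), Syn1 (-0.82) and Syngr1 on U39549_at (-0.51), all as log2 folds. The Syn2 probe set passed the filter only through controls kept in this fit, so its lower 12-hour reading was favoured in advance. With the clusters as a block none of the members was called at 12 hours or between 5 days and 12 hours, beside 0.292% and 0% over the array. The other 4 controls carry the source label of the peptide arrays, and the clusters and the 12-hour group cannot be told apart for the comparison with 5 days.

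For each called member, the most alike probe sets of other genes were found by Pearson correlation of log2 signal over the 18 arrays. Apart from Syn1 beside Sv2a they were of genes outside the machinery, as were most of the 1027 tested, with 44 members among them. These values describe arrays that share the 2 clusters. Syt11 was most like Slc1a3, the glial glutamate transporter (r = 0.904), Map2, a microtubule protein (0.898), and Pou3f3, a transcription factor (0.885). Within cluster 1 the correlation of Syt11 with Slc1a3 was -0.476 and within cluster 2 it was 0.644. Syn1 was most like Agrn, which encodes agrin (0.880), Capns1, the calpain small subunit (0.862), and Chrnb4, a nicotinic receptor subunit (0.849), and within the clusters the correlations of Syn1 with Agrn were 0.928 and 0.730. Sv2a was most like Kcnd3, a potassium channel (0.778), Dlg4, a postsynaptic scaffold (0.744), and Syn1 (0.737). Stx3 was most like Dlgap4 (0.880), Il4r, the interleukin-4 receptor (0.868), and Sod2, the mitochondrial superoxide dismutase (0.823). Among other genes, Rab1b on X13905cds_g_at was most like Stat3, a transcription factor of cytokine signalling, on 2 probe sets (0.944 and 0.934), and Glud1, glutamate dehydrogenase (0.920). The other probe set of Rab1b itself was closer still (0.951).

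Of 83 other listed genes of exocytosis, 13 were measured and 11 tested, on 16 probe sets. None was called against control at any time in limma, and at 12 hours, 1 day, 3 days and 5 days 5, 2, 1 and 2 of the 16 probe sets had an unadjusted p under 0.05, beside 29.3%, 11.7%, 4.58% and 9.15% over the array. Between 12 hours and 5 days 3 of the 16 (18.8%) were called, beside 16.5% over the array, all of them higher at 5 days, as 8.96% over the array were: Nrxn2, a presynaptic adhesion protein, by 2.55 on M96376_at (adjusted p = 0.0385 in limma), and its postsynaptic partners Nlgn1 (adjusted p = 0.0372) and Nlgn3, by 1.53 (adjusted p = 0.046). On its other probe set, rc_AI008021_s_at, the fold of Nrxn2 was 1.40 and was not called (adjusted p = 0.076 in limma). Nlgn1 read 4.8 to 14.9 at 12 hours, around the floor of 11.3, and 61.3 to 94.2 at 5 days, and no fold is given for it. Nlgn3 read 18.7 to 26 at 12 hours and 33.5 to 107 at 5 days. Both genes were under the filter signal at 12 hours and passed it only through other arrays, so their rise was favoured in advance. Neither gene's ranges overlapped, as for the 26.7% of all tested probe sets that lay wholly higher at 5 days. The median log2 fold of the 16 was -0.41 at 12 hours, beside -0.18 over all tested, and 0.16 for 5 days against 12 hours, beside 0.01. The summed signal of the 13 measured genes was 1499 to 1804 in cluster 1 and 2046 to 2619 in cluster 2, so it too followed the clusters. The clusters were drawn from all tested probe sets, those of this list among them. The highest signals in the sum were of Cacna1a (502 to 989.7) and Nrxn2 (133.6 to 718). Sncg and Nlgn2 stayed under the filter signal on every array.

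Between 12 hours and 5 days some cell type markers were called too, in shares near the 16.5% over the array: 3 of 20 probe sets of the neuron list (15%) and 3 of 18 of the astrocyte list (16.7%). The neuron marker Map2 read 42.6 to 57.2 at 12 hours and 419.5 to 545 at 5 days on U30938_at, a rise of 3.39 on the log2 scale (adjusted p = 0.049 in limma), and its other probe sets had folds of 0.25 to 3.06 and were not called. Nefl rose by 2 on AF031880_at (adjusted p = 0.0416 in limma), while its fold on M25638_s_at was -0.73 (adjusted p = 0.574). Nefh fell by 2.97 on rc_AA818677_at (adjusted p = 0.0394 in limma), while its fold on X13804cds_at was -0.36 (adjusted p = 0.607). The mean log2 signal of rc_AA818677_at, 4.865, lay below the filter signal, and its log2 fold at 12 hours against control was 2.81. It may have passed the filter through the 12-hour arrays, where it was highest, and its fall would then be favoured in advance. The astrocyte transporter Slc1a3 rose by 3.52 on S75687_s_at and 3.28 on X63744_g_at (adjusted p = 0.046 and 0.0446 in limma), while its folds on S59158_at and X63744_at were 2.88 and -0.59 (adjusted p = 0.0823 and 0.263). The astrocyte enzyme gene Glul fell by 0.84 on rc_AI012265_i_at (adjusted p = 0.0409 in limma). Its other tested probe sets had folds of -0.427, -0.584 and -0.475 and were not called. Of the neuron list, 2 genes were higher and 1 lower, and of the astrocyte list 1 higher and 1 lower. Their part in the differences of Syt11, Sv2a, Syn1, Stx3 and Rab1b was not tested.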

How the data were processed

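Each of the 18 arrays has 1 value per probe set in the table the authors deposited, a linear intensity (signal), for 1322 probe sets, 59 of them controls of the array. The software was not given in the sources used here, nor was the array scaling target. The 2% trimmed mean ranged from 502.1 to 502.6 over the arrays, and the intensities were therefore used without further scaling. Symbols came from the platform annotation (1137 of 1263 probe sets with 1 symbol, 8 with several, 118 with none), and all 36 member genes matched RefSeq's gene table.

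Signals were raised to a floor at the 10th percentile (11.3) before taking log2. Probe sets above the 30th percentile (44.9) on at least 3 arrays were kept, 1027 in all. One model with 5 groups was fitted in limma 3.58.1 on R 4.3.3 (lmFit, eBayes, 13 residual degrees of freedom, two-sided), with Benjamini-Hochberg adjustment over all 1027 in each of 6 tests; the fit was tested on simulated data. The number of arrays, 3 to 6 a group, limits the precision. Array clusters came from average linkage on 1 minus the Pearson correlation. The members, lists and tests were chosen with earlier results of these data known.

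Values on every array are given for members past the threshold in any test, the member with the highest mean log2 signal in each family of name stems, and the 8 members with the smallest F-test p; members singled out otherwise were chosen after their values were seen. Alternatives were 2 other floors, 2 other filters, 3 scalings, limma's trend and robust options, only the compared groups, controls 1 and 2 left out, clusters or replicate numbers as a block, gene means and each array left out in turn. Fits without the third arrays at 1 day and 3 days, and within each cluster, were added after seeing the data. Same-numbered arrays did not deviate together (r over 0.1 in all 3 pairs) in any pair of groups except 1 day with 3 days (0.39, 0.429 and 0.683), which were not compared with each other outside the F-test, so the numbers were not used to pair arrays.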

Additional observations from a re-analysis of the deposited data

Results flagged for a closer look

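Among the control arrays of the 44 tested members, 2 held an array that stood far from the other 5 by Dixon's criterion, or 4.55% of the groups tested, where chance gives about 1 in 20. Stx4 read 370.4 on control 6, below the other controls, and Syt2 read 58.8 on control 1, above them. The difference between 5 days and 12 hours passed the limma threshold, as a test of 2 exposure times under the same control, for 5 members. On the log2 scale it was 1.789 for Syt11, 0.903 for Sv2a, 0.656 for Syn1, -1.156 for Stx3 and -0.828 for Rab1b on X13905cds_g_at. All 5 differences lie between array clusters as well as between times. With the clusters as a block none was called, as none was over the array (0%), so that fit cannot tell these members from the rest.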

How the results depend on the processing

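No called member changed its direction under any alternative run, but for 5 days against 12 hours many runs could not change it. That fold is the same number when a control, 1-day or 3-day array is left out. It is also unchanged with limma's trend and robust options and with only the compared groups. At 12 hours the count of called members went from 1 to 0 with quantile normalization, median centring and cyclic loess. It was also 0 with only the compared groups, the clusters as a block and within cluster 1. Without the third arrays at 1 day and 3 days it was 2 (Syn1 and Synj2), beside 2.92% over the array. Without controls 1 and 2 it was 10, beside 31.3%. Leaving out 1 array gave 0 to 7, with 7 without control 1, beside 20.5%. At 1 day the count went from 0 to 1 without controls 1 and 2 (Syngr1), beside 5.74% over the array. Without the third arrays at 1 day and 3 days it was 2 (Stx5 and Syt4), beside 3.7%. Within cluster 2 it was 3 (Stx5 and Syt4 on both probe sets), beside 12%. Leaving out 1 array gave 0 to 2, with 2 without array 3 at 1 day, beside 2.53%. At 3 days it stayed at 0 throughout. Between 5 days and 12 hours it went from 5 to 1 with quantile normalization (Stx3), beside 8.57% over the array, and to 0 with the clusters as a block, beside 0%. It was 12 with only the compared groups, beside 38.2%. Without controls 1 and 2 it was 8, beside 24%, and without array 3 at 1 day and at 3 days it was 9, beside 23.5%. Leaving out 1 array gave 0 to 8, with 8 without array 3 at 3 days, beside 20.9%. The count was 0 without any of the 12-hour arrays, the second at 1 day or array 2 or 3 at 5 days, beside 0.0974% to 7.4%. Of the calls between 5 days and 12 hours the higher and lower were 3 and 2 as deposited, 2 and 2 with median centring, 3 and 1 with cyclic loess and 0 and 1 with quantile normalization. Over the array they were, in the same order, 92 and 77, 73 and 82, 85 and 56, and 43 and 45 of the 1027. In the F-test the count went from 0 to 6 without controls 1 and 2, beside 21.3% over the array. It went to 3 without array 3 at 1 day and at 3 days, beside 8.76%. Leaving out 1 array gave 0 to 3, with 3 without control 1, beside 11.1%. With the replicate block the count was 0 at 12 hours, 1 at 5 days (Syngr1) and 3 between 5 days and 12 hours (Stx3, Syn1 and Syt11). The shares over the array there were 0.292%, 5.94% and 14.8%.

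Over the array, the 17 calls at 12 hours became 8 with quantile normalization, 4 with cyclic loess, 1 with only the compared groups, 27 without a filter, 3 with either block, 0 within cluster 1 and 321 without controls 1 and 2, and 1 to 211 on leaving out 1 array. The 3 at 1 day became 0 to 123 over all alternatives, the 0 at 3 days up to 6, the 0 at 5 days 61 with the replicate block and at most 2 otherwise, and the 17 of the F-test 1 to 219. The 169 between 5 days and 12 hours became 98 without a filter, 88 with quantile normalization, 392 with only the compared groups and 0 with the clusters as a block, and 1 to 215 on leaving out 1 array. The causes were not tested. Median centring moved the median fold over all tested at 12 hours by 0.19, quantile normalization by 0.15 and cyclic loess by 0.14. The floor of 11.3 limits the folds of Syn2 on rc_AI145494_g_at, Syt2 and Syt4 on U14398_at, which were at it on 3, 3 and 5 arrays.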
